A study of Schizosaccharomyces pombe with 4 samples.

Results

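The proteins of the large subunit of the cytosolic ribosome were followed here at the level of their messenger RNAs in the fission yeast Schizosaccharomyces pombe. Members were the S. pombe probe sets whose platform symbol was rpl followed by a number. The rule found 68 probe sets of 67 genes, among 2899 S. pombe genes with a named probe set, and all 67 genes lay above background on all 4 arrays. Cells of the strain labelled Atf1-OP, which overexpress the stress-responsive transcription factor Atf1, were compared with wild-type cells that carried the empty vector. Each group had 2 Affymetrix arrays, which the labels call biological replicates; nothing states that they came from separate cultures, so p-values may measure technical spread. The labels name neither the vector or promoter that drove Atf1 nor the medium, the time of expression or whether a strain is 1 clone. All levels are log2 probe set values, and all differences are Atf1-OP minus control.

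The large subunit holds the peptidyl transferase centre, which joins amino acids, and the tunnel through which the new protein leaves. Most of its proteins are encoded in S. pombe by more than 1 gene, and the copies usually encode nearly the same protein. In growing yeast these genes are among the most strongly transcribed, they are activated through the nutrient-sensing kinase complex TORC1, and they are repressed together in many stresses.

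The atf1 transcript itself, on deposited log2 values of 6.94 and 7.47 in Atf1-OP and 6.01 and 6.19 in control, was higher on both overexpression arrays. After normalization the difference was 0.83 ± 0.20 (SE; limma, adjusted p = 0.0262). The median S. pombe probe set read 6.96 and 6.97 in Atf1-OP, against 6.80 and 6.70 in control, and background stood at 2.74 and 2.69 against 3.06 and 3.16. Quantile normalization over S. pombe probe sets was therefore used for the values below. Added poly-A control transcripts, which are labelled together with the sample, also differed. Their 12 probe sets nearest the 5′ end averaged 4.45 and 4.78 in Atf1-OP and 3.15 and 2.97 in control, whereas the 12 at the 3′ end averaged 9.21 and 9.39 in Atf1-OP and 8.96 and 8.95 in control. Ribosomal RNA of S. pombe was read by 7 probe sets, whose mean was 10.38 and 10.48 in Atf1-OP and 11.13 and 11.06 in control, and none of the 7 overlapped between groups. The 27 hybridization control probe sets averaged 10.98 and 10.78 in Atf1-OP and 12.02 and 11.79 in control, and all 27 were lower in Atf1-OP with no overlap. The part of these differences in the results below was not tested.

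Large subunit genes were called in both directions. Of the 67 genes, 9 rose, 10 fell and 48 did not pass (limma, adjusted p under 0.05 over 2857 genes). The background over all genes tested was 10.3% higher and 11.1% lower, or 21.4% in either direction, against 28.4% of the members. The median difference of the members was -0.02, against -0.01 over all genes tested. Of the 100 genes with the highest levels 35 were members, so normalization by rank may take up a shift that they share. With median centring the medians were -0.08 for the members and 0.05 for all genes. They were -0.05 and 0.0002 with loess, and 0.14 and 0.27 in the deposited values. A shift of the members as a set was not tested. The median absolute difference was 0.15 for the members and 0.25 for all genes. The members were also brighter, with a median level of 11.47 against 6.89, and the part of level in this gap was not tested. Changes of members ran from -0.46 to 0.56 on the log2 scale, while those of all genes ran from -1.49 to 2.17. These ranges come from 67 and 2857 genes, and a larger set can reach further. The largest rise that passed was 1.41-fold and the largest fall 1.38-fold.

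These calls depended on the arrays and on the variance model. Without control replicate 1 and without control replicate 2, limma called 0 members, with 15 members at an unadjusted p under 0.05 in each fit, while of all genes 2.66% and 2.56% were called higher, 1.54% and 1.47% lower, and 4.2% and 4.03% in either direction. Without Atf1-OP replicate 1, 19 members rose and 26 fell, against 10.3% and 12% of all genes. Without Atf1-OP replicate 2, 14 rose and 11 fell, against 4.45% and 5.85%. A fit without a variance trend also called 0 members, while 3.54% of all genes were called higher and 2.7% lower, or 6.23% in either direction. In that fit 15 of the 67 members and 1013 of the 2857 genes had an unadjusted p under 0.05. A term for the replicate number gave 10 rises and 12 falls among the members, and called 29.7% of all genes. In all of these fits the 9 genes kept a positive and the 10 genes a negative difference, but this was fixed in advance. The variance model and the replicate term leave the difference unchanged. Groups of the called genes did not overlap, so leaving out 1 array cannot turn a sign.

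**Figure D1:**
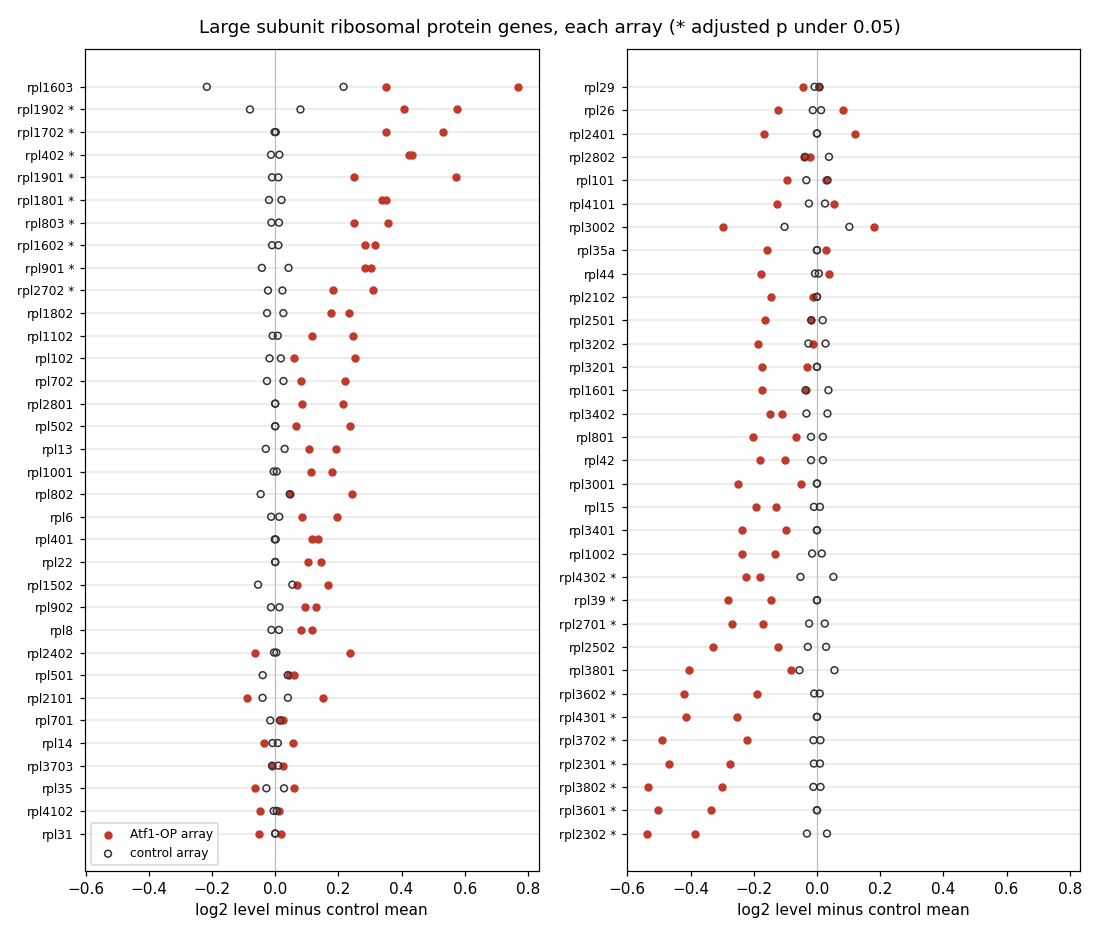
Log2 level of each of the 67 genes on each array minus the gene's control mean, with Atf1-OP arrays as filled red points and control arrays as open circles, ordered from the largest rise to the largest fall. Groups did not overlap for 46 genes, and in each of the 19 genes marked with an asterisk both Atf1-OP arrays lay on the same side of both control arrays.

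Groups did not overlap for 46 of the 67 genes, or 68.7%, against a background of 66.3% over all genes tested. For 13 members both control arrays had exactly the same normalized value, because quantile normalization assigns values by rank. On that scale the spread between control arrays is not known for those genes. Their deposited control values do differ, at 12.01 and 12.04 for rpl3601 and 9.50 and 9.45 for rpl502.

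Among the genes that rose, the largest called change was in the family of rpl1901 and rpl1902, whose protein reaches across to the small subunit. The gene rpl1902 (SPCC1682.14, chromosome III) had levels of 10.41 and 10.58 in Atf1-OP and 10.09 and 9.93 in control, which is 0.49 ± 0.09 (SE) higher on the log2 scale and 1.41-fold (limma, adjusted p = 0.0124). Its partner rpl1901 (SPBC56F2.02, chromosome II) had levels of 11.84 and 12.16 in Atf1-OP and 11.60 and 11.58 in control, a difference of 0.41 ± 0.10 (SE; limma, adjusted p = 0.0256). For both genes the higher of the 2 overexpression arrays was replicate 2, and no overexpression array came down to a control array.

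Both rpl402 and rpl1702, whose proteins line the exit tunnel, rose, while rpl401, the other copy for the protein of rpl402, was at 0.13 and did not pass (limma, adjusted p = 0.180). The tunnel gene rpl39 fell (-0.21; limma, adjusted p = 0.0495). The gene rpl402 (SPBP8B7.03C) had levels of 11.48 and 11.47 in Atf1-OP and 11.03 and 11.06 in control, which is 0.43 ± 0.06 (SE) higher, or 1.35-fold (limma, adjusted p = 0.0058). Replicates lay close together in both groups, and rpl402 had the smallest adjusted p of the 67 genes. The gene rpl1702 (SPCC364.03) had levels of 9.98 and 10.16 in Atf1-OP and 9.63 and 9.63 in control, a difference of 0.44 ± 0.08 (SE; limma, adjusted p = 0.0139). The other copy, rpl1701, was not analysed here. The remaining genes that rose were rpl1801 (0.34), rpl803 (0.30), rpl1602 (0.30), rpl901 (0.29) and rpl2702 (0.25). Of these, rpl803 encodes a core protein close to the peptidyl transferase centre.

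Among the genes that fell, both copies of the family of rpl2301 and rpl2302 were lower. Their protein lies at the interface with the small subunit. The gene rpl2302 (SPCC1322.11) had levels of 11.78 and 11.63 in Atf1-OP and 12.20 and 12.13 in control, a difference of -0.46 ± 0.07 (SE; limma, adjusted p = 0.00707). The gene rpl2301 (SPAC3G9.03) had levels of 11.47 and 11.27 in Atf1-OP and 11.73 and 11.75 in control, a difference of -0.37 ± 0.08 (SE; limma, adjusted p = 0.0168). In both, all overexpression values lay below both control values, and replicate 2 of the overexpression group was the lowest array.

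The same order of arrays was seen for rpl3601 and rpl3802, which encode small proteins of the subunit. Levels of rpl3601 (SPCC970.05) were 11.75 and 11.58 in Atf1-OP and 12.08 on both control arrays, a difference of -0.42 ± 0.07 (SE; limma, adjusted p = 0.0100). Levels of rpl3802 (SPAC30D11.12) were 12.49 and 12.25 in Atf1-OP and 12.78 and 12.80 in control, a difference of -0.42 ± 0.08 (SE; limma, adjusted p = 0.0141). The others that fell were rpl3702 (-0.35), rpl4301 (-0.33), rpl3602 (-0.30), rpl2701 (-0.22), rpl39 (-0.21) and rpl4302 (-0.20). The product of rpl39 is a very small protein of the exit tunnel, and those of rpl3702 and rpl4301 bind zinc. The fall of rpl39 lay close to the threshold.

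The largest fitted difference of all did not pass. The gene rpl1603 (SPBC2G2.05) had levels of 6.14 and 5.73 in Atf1-OP and 5.59 and 5.16 in control, a difference of 0.56 ± 0.22 (SE; limma, adjusted p = 0.105). Its groups did not overlap, but the SD between replicates was 0.30 in Atf1-OP and 0.31 in control, and replicate 1 was the higher array in each group. It was also the dimmest probe set of the 67 and moved most between scalings: the difference was 0.79 after median centring and 1.01 in the deposited values.

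The 67 genes were then set out by the protein they encode. Copies with the same number were taken as a family, which gave 25 families of 52 genes, 2 of them with 3 copies, and left 15 genes with no other measured copy. The genes rpl8 and rpl35a were kept apart from rpl801 to rpl803 and from rpl35, since they are known to encode different proteins despite the similar names. Of the 15 genes alone, rpl1702 rose, rpl39 fell and 13 did not pass. Those 13 included rpl42, the target of resistance to the drug cycloheximide (-0.14, adjusted p = 0.115 by limma), and rpl1102, whose protein binds the 5S ribosomal RNA (0.18, adjusted p = 0.0868 by limma).

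Of the 25 families, every measured copy rose in 1 (rpl19) and fell in 3 (rpl23, rpl36 and rpl43). The fall of rpl4302 did not pass with median centring, loess or deposited values (limma, adjusted p = 0.202, 0.124 and 0.779). That of rpl2301 did not pass with loess or deposited values (limma, adjusted p = 0.0510 and 0.285). In 7 families a single copy was called and in 13 none was. Only the rpl27 family had 1 copy called higher and 1 called lower, rpl2702 and rpl2701. With median centring neither call passed, while the differences were 0.26 for rpl2702 (limma, adjusted p = 0.0728) and -0.31 for rpl2701 (limma, adjusted p = 0.0676). Levels cannot be compared between probe sets, so for each pair of copies the difference between them was taken on each array and then compared between groups. Such a difference is not affected by centring an array. With 2 arrays against 2 the smallest two-sided p of an exact permutation test is 0.333, so no single pair could reach 0.05.

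**Figure D2:**
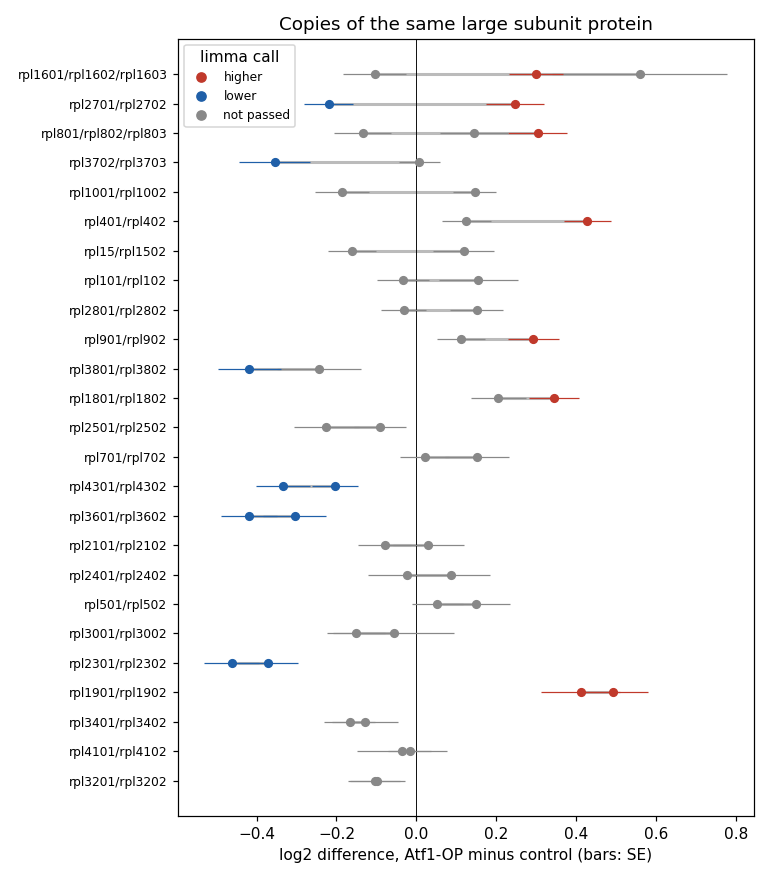
Log2 difference between Atf1-OP and control for each copy of the 25 families, with SE bars from limma and a grey line that joins copies of a family; red copies rose, blue copies fell and grey copies did not pass. Families are ordered by the distance between their copies, from rpl16 at the top to rpl32 at the bottom.

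Across the 29 pairs the change of the first copy differed from that of the other by a median of 0.16 on the log2 scale, from 0.0037 to 0.66. Pairs of members from different families differed by a median of 0.22, over 2182 pairs that share genes and arrays, and any pair of tested genes by 0.36. Arrays of the 2 groups did not overlap for 22 of the 29 pairs, or 75.9%, spread over 19 families. The background for any 2 tested genes was 65%, and 76.1% of the pairs from different families did not overlap either. Copies of a family can share probe sequence, and its part in their likeness was not tested.

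The pair with the largest gap was rpl1601 and rpl1603, where the dim rpl1603 set the size. The rpl1601 minus rpl1603 difference was 3.89 and 4.18 in Atf1-OP and 4.45 and 4.95 in control, a change of -0.66. In the same family rpl1601 minus rpl1602 was -0.29 and -0.45 in Atf1-OP and -0.01 and 0.08 in control, a change of -0.40. The gene rpl1602 rose and rpl1601 was at -0.10 (limma, adjusted p = 0.358), or 0.15 in the deposited values.

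For rpl2701 minus rpl2702 the difference was 1.27 and 1.30 in Atf1-OP and 1.80 and 1.71 in control, a change of -0.47, or -0.57 in the deposited values. The groups lay well apart and replicates close together. For rpl801 minus rpl803 it was 0.72 and 0.69 in Atf1-OP and 1.11 and 1.18 in control, a change of -0.44. The third copy, rpl802, lay between these, at a change of 0.14 against -0.13 for rpl801, and neither of these copies passed (limma, adjusted p = 0.247 and 0.208).

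In the rpl37 family rpl3702 fell while rpl3703 was at 0.01 (limma, adjusted p = 0.932). Their difference was -1.27 and -1.51 in Atf1-OP and -1.03 and -1.03 in control, a change of -0.36, or -0.15 in the deposited values. The gene rpl3702 had a further probe set, of a kind that the array maker marks as open to cross-hybridization. On deposited values it differed by -0.13, the same as the probe set used.

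For rpl1001 minus rpl1002, copies of a protein that joins the subunit late in its assembly, the difference was 2.03 and 2.20 in Atf1-OP and 1.80 and 1.76 in control, a change of 0.33. Neither copy passed. On deposited values the change was 0.13, and a probe set that reads both copies together showed 12.48 and 12.70 in Atf1-OP and 12.31 and 12.39 in control. For rpl401 minus rpl402 the difference was -0.64 and -0.65 in Atf1-OP and -0.33 and -0.35 in control, a change of -0.30. The replicates agreed closely here, and rpl401 itself was at 0.13 (limma, adjusted p = 0.180).

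At the other end, 3 families had copies that changed by nearly the same amount. The genes rpl3201 and rpl3202 differed in change by 0.0037 in size, rpl4101 and rpl4102 by 0.02, and rpl3401 and rpl3402 by 0.04. The rpl41 genes encode an extremely short basic peptide between the subunits. None of these 6 genes passed, and on deposited values the gaps were -0.13, 0.12 and -0.16, so their nearness depended on the scaling.

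Of the 29 pairs, 17 had changes of the same sign after quantile normalization and 23 in the deposited values. The direction of the within-pair change was the same in both for 28 of the 29 pairs, and 19 pairs had no overlap in both.

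Probe sets that read 2 copies together fell outside the rule, and 4 of them were measured. The set for rpl301 and rpl302, which encode a protein at the peptidyl transferase centre, had deposited levels of 12.26 and 12.29 in Atf1-OP and 11.62 and 11.68 in control, or 0.41 higher after median centring. The set for rpl1101 and rpl1102 was 0.19 higher after centring. The sets for rpl1001 and rpl1002, and for rpl1201 and rpl1202, lay at 0.02 and -0.03, and their centred groups overlapped.

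The genes that fell had a lower median length than those that rose. The median gene length was 798 bp for the 9 that rose and 528 bp for the 10 that fell, against 695 bp for all 67 and 1875 bp for all genes tested. Across the 67 members, which share the same arrays, change and log2 gene length had a Pearson r of 0.50 and a Spearman rho of 0.50, or 0.43 and 0.47 without rpl1603. Across all genes the Pearson r was 0.15, and across 45 small subunit genes 0.16. Change also went with the mean level of the probe set, with a Pearson r of -0.44 over the 67 members, or -0.34 without rpl1603, and -0.01 over all genes.

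**Figure D3:**
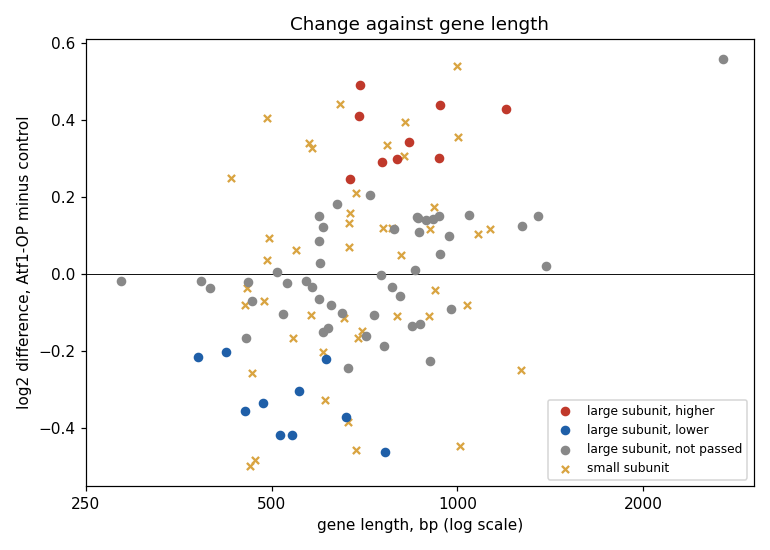
Log2 difference between Atf1-OP and control against gene length in bp on a log scale, for large subunit genes (filled points, coloured by call) and small subunit genes (crosses). The genes that rose had a median length of 798 bp and those that fell 528 bp, and rpl1603 stands alone at 2698 bp.

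With a correction for gene length, added after the data were seen, 15 members rose and 6 fell, against 13.3% and 12.7% of all genes, and the median was 0.11. All 9 rises and 6 of the 10 falls were among them. The falls that did not pass were rpl39, rpl2701, rpl3602 and rpl4302. The correction did not remove the length pattern: change and log2 gene length still had a Pearson r of 0.35 over the 67 members. With median centring it was 0.60. The poly-A controls differed more at the 5′ than at the 3′ end, by 1.56 against 0.34 on the log2 scale, and their part in the length pattern was not tested.

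The scaling moved the whole set. In the deposited values the median of all genes lay 0.27 higher in Atf1-OP, and that of the members 0.14 higher. On that scale 26 members rose and 4 fell, against 31.6% and 4.06% of all genes, or 35.7% in either direction. The 4 were rpl2302, rpl3601, rpl3602 and rpl3802. With median centring 8 members rose and 7 fell, against 15.9% and 12% of all genes. With a loess curve fitted on genes other than ribosomal protein genes, 9 rose and 8 fell, against 12.1% and 11.6%, or 23.7% in either direction. Shared with the quantile fit were 7 rises and 7 falls under median centring and 9 rises and 7 falls under loess. All 9 rises stayed positive and all 10 falls negative under these 3 scalings. Several members that did not pass changed sign: rpl1001, at 0.15, lay at -0.04 with median centring, while rpl801, rpl1002 and rpl2102, at -0.13, -0.19 and -0.08, were positive in the deposited values.

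**Figure D4:**
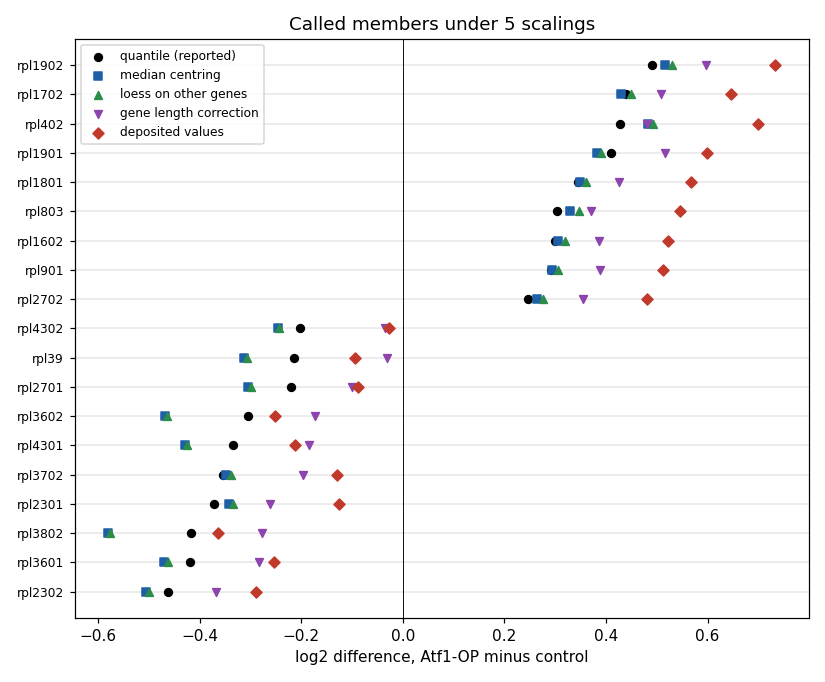
Log2 difference between Atf1-OP and control for the 19 called genes under 5 scalings, 1 symbol per scaling. Deposited values lie to the right of the median centred ones for every gene, yet rpl4302 at -0.03 and the 9 other falls remain below 0.

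Beside rpl1603, the members moved most by the scaling were rpl402, rpl501, rpl2101, rpl2102 and rpl1601. The gene rpl501, whose protein binds the 5S ribosomal RNA, was at 0.05 (limma, adjusted p = 0.579) and at 0.32 in the deposited values. For rpl2101 the values were 0.03 and 0.30.

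The small subunit genes, whose symbol is rps followed by a number, were counted in the same way. Of 45, 10 rose and 8 fell, while 27 did not pass, against 10.3% and 11.1% of all genes. The counts were 21 and 4 in the deposited values, against 31.6% and 4.06% of all genes. With median centring they were 5 and 6, against 15.9% and 12%. Without a variance trend limma called 0, with 15 of the 45 at an unadjusted p under 0.05, against 1013 of 2857 genes. Most of the calls were lost without control replicate 1 or without control replicate 2. Without Atf1-OP replicate 1 the changes ran from -0.67 to 0.55. With all 4 arrays the median difference of the small subunit genes was 0.05, or -0.05 with median centring. Changes ran from -0.50 to 0.54. The genes rps27 (-0.38 ± 0.05 SE, limma adjusted p = 0.0054), rps13 (0.39 ± 0.05 SE) and rps2602 (0.44 ± 0.06 SE) had the smallest p-values. The difference between the subunits was not tested.

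**Figure D5:**
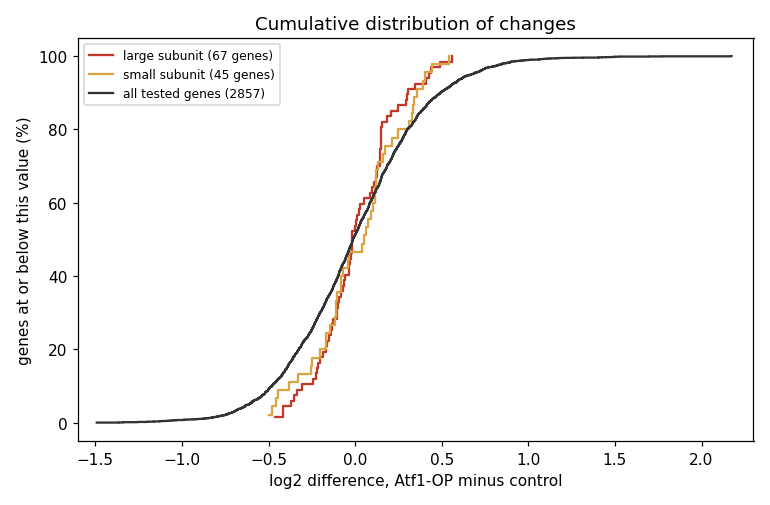
Percentage of genes at or below each log2 difference between Atf1-OP and control, for 67 large subunit genes, 45 small subunit genes and 2857 tested genes. Both ribosomal curves stay between -0.50 and 0.56, whereas all genes extend from -1.49 to 2.17. The sets differ in size and in level, so the ranges are not like for like.

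Of the 7 genes for the acidic stalk of the large subunit, which recruits translation factors, rpp103 fell (-0.42 ± 0.10 SE, limma adjusted p = 0.0248), none rose and 6 did not pass, among them rpp203 (-0.36) and rpp0 (0.17). Of 3 measured genes that encode ubiquitin fused to a ribosomal protein, ubi1 fell (-0.21, limma adjusted p = 0.0488). In the deposited values ubi1 was at 0.02. The fall of ubi1 did not pass with median centring, loess, no variance trend, a robust fit, the mean of probe sets or the replicate block. The gene ubi2 stood at 0.23 (limma, adjusted p = 0.0904). Of 23 measured genes for assembly of the large subunit, nop16 (0.61 ± 0.12 SE) and rlp7 (0.55 ± 0.12 SE) rose, drs1 (-0.39 ± 0.09 SE), a helicase gene, fell, while 20 did not pass; the median was -0.01, or 0.07 with median centring. Their adjusted p values by limma were 0.0167, 0.0188 and 0.0227. The assembly list held 52 genes, so most of it was not measured. For the stalk, ubiquitin fusion and assembly counts the background over all genes was 10.3% higher and 11.1% lower. In the deposited values 3 stalk genes rose and 0 fell, with rpp103 at -0.22. There 8 assembly genes rose and 0 fell, with drs1 at -0.16. Of all genes 31.6% rose and 4.06% fell on that scale. Without a variance trend limma called 1 assembly gene higher and 0 lower, and 0 stalk genes. The background of that fit was 3.54% higher and 2.7% lower. Of 3 measured translation elongation genes none passed in limma, and none had an unadjusted p under 0.05; tef5 was at 0.13 and tef101 at -0.05.

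Of 14 measured genes for regulators of ribosomal protein genes and for TORC1, 2 rose and 1 fell, against 10.3% and 11.1% of all genes, so that the share called was near the background. In the deposited values 6 rose and 1 fell, against 31.6% and 4.06% of all genes. Without a variance trend limma called 0, with 6 of the 14 at an unadjusted p under 0.05, against 1013 of 2857 genes. Fewer of the 14 were called with any 1 array left out, where their median was 0.098 to 0.17. The gene sfp1, whose budding yeast counterpart activates ribosomal protein genes, had levels of 7.62 and 7.65 in Atf1-OP and 6.83 and 7.14 in control, a difference of 0.65 ± 0.14 (SE; limma, adjusted p = 0.0177). The gene rhb1, which encodes the GTPase that activates TORC1, rose by 0.40 ± 0.11 (SE; limma, adjusted p = 0.0351). The gene rrn7 had levels of 8.66 and 8.43 in Atf1-OP and 9.13 and 9.17 in control, a difference of -0.61 ± 0.10 (SE; limma, adjusted p = 0.00993). Its product is an RNA polymerase I factor that also binds the promoter element of S. pombe ribosomal protein genes. Groups of sfp1 and rrn7 did not overlap.

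Of 14 measured genes listed as markers of mating and meiosis, 4 rose and 2 fell, against 10.3% and 11.1% of all genes. Their median was 0.24, or 0.39 in the deposited values, against -0.01 and 0.27 over all genes. The rises were ste11 (0.82 ± 0.10 SE), a regulator of sexual differentiation, mam1 (0.53 ± 0.08 SE), mei2 (0.44 ± 0.10 SE) and ctt1 (0.77 ± 0.12 SE). The last of these encodes catalase, is known as a stress gene and target of Atf1, and is no specific marker of mating. The falls were mde4 (-0.75 ± 0.20 SE) and mfm2 (-0.48 ± 0.07 SE). Both control arrays had the same normalized value for mfm2. The 8 that did not pass ran from -0.66 to 0.43. Without a variance trend limma called 1 of the 14 higher and 0 lower, against 3.54% and 2.7% of all genes. Of 3 markers of vegetative growth none passed in limma, and none had an unadjusted p under 0.05. The part of a mixture of cell states in the ribosomal values was not tested, and fewer cells of a state cannot be told apart from less RNA per cell. The 10 budding yeast RPL probe sets on the array, which S. pombe RNA should not fill, had medians of 2.24 and 2.28 in Atf1-OP and 2.34 and 2.19 in control, all below the background of their array. Of the 10, 3 and 3 lay above that background in Atf1-OP and 2 and 1 in control, and the highest single value was 3.15 and 3.22 in Atf1-OP and 3.34 and 3.52 in control.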

How the data were processed

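The authors deposited log2 probe set values for 4 Affymetrix arrays of biotin-labelled cRNA, per the labels' protocols; the scale was judged from the values, and no source used here gives summarisation or normalization. Groups and replicate numbers came from the sample titles. Probe sets were matched by Entrez identifier, and otherwise by lower-case symbol, to the RefSeq table of assembly ASM294v3, which gave gene lengths: 2917 of 10928 matched S. pombe genes, 20 annotated to several genes were left out, and the probe set with the highest mean was kept for each gene. A gene was tested if it exceeded the 95th percentile of budding yeast probe sets on at least 2 arrays, which left 2857 genes. Values were quantile normalized and compared with limma 3.58.1 in R 4.3.3 (eBayes, variance trend), and p-values were adjusted by Benjamini-Hochberg across every gene tested. The method was tested on simulated data. The precision is limited by 2 arrays per group.

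Named members were the 8 with the largest passing changes without overlap, the 6 families furthest apart and the 3 closest, a gene with several probe sets, and the 6 most moved by scaling; other members were named after their values were seen. Of the other lists, up to 3 genes with the smallest p were named, and ctt1, mei2 and mde4 after their values were seen. The members and lists were chosen with earlier results of these data known. Settings tried beside these were 3 scalings, looser and stricter filters, variance models, probe set averaging, a replicate block, a looser threshold and leaving out each array; a gene length correction was added after the data were seen. Leaving out 1 array leaves its group with a single array, whose spread is then taken from the other group. Promoter and protein sequences were not used here. Plots used matplotlib 3.10.9 (Python 3.11.15).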

Additional observations from a re-analysis of the deposited data

How the results depend on the processing

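The counts of 9 rises and 10 falls moved by more than 1.5 times under some settings. They were 26 and 4 with the deposited values, 15 and 6 with the gene length correction, and 0 and 0 in limma without trend. In that last fit 15 of 67 members and 1013 of 2857 genes had an unadjusted p under 0.05. Leaving out 1 array gave 0 to 19 rises and 0 to 26 falls, with 0 of each without either control array. They stayed within 1.5 times under loess, median centring, no background filter, a filter on all 4 arrays, a robust fit, the mean of probe sets and an adjusted p under 0.1. The median of the members, -0.02, was -0.079 after median centring, 0.14 in the deposited values, 0.11 after the length correction and -0.053 to 0.038 with 1 array left out. The 19 families with a pair that did not overlap became 19 to 22 under the other scalings and the mean of probe sets. Whether the replicate numbers pair the samples is not known. The correlation of same-numbered deviations across genes was 0.038, which cannot settle this with 2 arrays per group. With the replicate block 10 members rose and 12 fell. Filters, variance models, the replicate block and leaving out 1 array could not change the sign of a called member. The 9 member genes that rose and the 10 that fell kept their sign under the other scalings, the length correction and probe set averaging. In contrast ubi1, which is no member and fell, was at 0.02 in the deposited values. Promoter motifs were not analysed here. Arrays in groups of 2 limit the precision throughout, and for 13 members the spread of the control is not known on the quantile normalized scale.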
